A study of Mus musculus with 8 samples.

Results

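The snoRNA host genes Gas5, Snhg1, Snhg3, Snhg5, Snhg6, Snhg8, Snhg12 and Snhg15 were followed in mouse bone marrow-derived macrophages, as 8 of the 24940 gene rows in the deposited expression table and 8 of its 3683 noncoding rows. They were taken by gene symbol, and each has 1 row. The macrophages came from C57BL/6 mice aged 6 to 8 weeks, were kept in M-CSF, the growth and survival factor of this lineage, at 30 ng/ml, and can become bone-resorbing osteoclasts when RANKL is added. There were 4 groups of 2 libraries, made from total RNA. All groups carry a short hairpin. NCsh libraries carry the hairpin labelled NCsh, which the labels do not spell out, and TMBIM6sh libraries carry a hairpin against Tmbim6, which encodes a membrane protein of the endoplasmic reticulum. For each hairpin, cells were grown without RANKL or exposed to it for 24 h, at 100 ng/ml. With 1 hairpin per target in the labels, an effect of losing Tmbim6 cannot be told apart from other effects of that hairpin. The labels do not say whether duplicates came from separate mice or cultures, so p-values measure only the spread between these libraries, which may be technical.

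Small nucleolar RNAs (snoRNAs) guide chemical modification of ribosomal RNA. Box C/D snoRNAs direct 2′-O-methylation with the methyltransferase fibrillarin, and box H/ACA snoRNAs direct pseudouridylation with the pseudouridine synthase dyskerin. Most mammalian snoRNAs are cut from introns of a host transcript, and in the genes described here the spliced host RNA is a long noncoding RNA. Several of these spliced RNAs are degraded by nonsense-mediated decay, and many host promoters start with a run of pyrimidines, the 5′ terminal oligopyrimidine (TOP) feature shared with ribosomal protein genes. The level of a spliced host RNA therefore reflects both its synthesis and its decay, and it is not a measure of the mature snoRNA.

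The snoRNAs show what each host carries, and 1 per host is printed for that reason. In the GENCODE M21 annotation (GRCm38, the assembly called mm10 in the deposited table), the 8 host spans hold 28 snoRNA genes on the same strand. Gas5 holds 9 and Snhg1 holds 8, Snhg12 holds 4, Snhg3 and Snhg5 hold 2 each, and Snhg6, Snhg8 and Snhg15 hold 1 each. Genes were counted by their annotated type, and those in Gas5 include Mir5117, which has a microRNA name. The snoRNAs are written 5′ to 3′, and the capitals mark a C box (TGATGA) and a D box (CTGA) in box C/D snoRNAs or the ACA of box H/ACA snoRNAs. No TGATGA was found in Snord22.
Snord47 in Gas5, chr1:161038082-161038158, plus strand: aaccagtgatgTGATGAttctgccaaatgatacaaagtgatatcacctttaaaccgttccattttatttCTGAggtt
Snord22 in Snhg1, chr19:8725866-8725991, plus strand: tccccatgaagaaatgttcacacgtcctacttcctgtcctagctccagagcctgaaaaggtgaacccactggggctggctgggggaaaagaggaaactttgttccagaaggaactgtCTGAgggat
Snord50a in Snhg5, chr9:88521529-88521600, minus strand: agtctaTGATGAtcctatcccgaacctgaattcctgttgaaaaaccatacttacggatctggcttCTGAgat
Snord87 in Snhg6, chr1:9942463-9942549, minus strand: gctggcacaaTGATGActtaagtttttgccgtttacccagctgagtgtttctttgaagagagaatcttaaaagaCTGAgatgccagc
Snora73a in Snhg3, chr4:132352775-132352979, minus strand: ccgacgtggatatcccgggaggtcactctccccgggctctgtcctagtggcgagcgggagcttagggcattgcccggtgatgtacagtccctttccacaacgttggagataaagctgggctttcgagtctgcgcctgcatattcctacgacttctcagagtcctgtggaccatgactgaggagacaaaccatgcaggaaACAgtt
Snora24 in Snhg8, chr3:123507937-123508066, minus strand: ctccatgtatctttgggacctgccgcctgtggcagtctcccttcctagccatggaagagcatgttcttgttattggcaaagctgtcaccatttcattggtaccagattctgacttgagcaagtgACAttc
Snora61 in Snhg12, chr4:132310240-132310369, plus strand: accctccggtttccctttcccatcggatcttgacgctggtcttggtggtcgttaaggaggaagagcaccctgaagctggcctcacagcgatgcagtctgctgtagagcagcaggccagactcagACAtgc
Snora9 in Snhg15, chr11:6528033-6528165, minus strand: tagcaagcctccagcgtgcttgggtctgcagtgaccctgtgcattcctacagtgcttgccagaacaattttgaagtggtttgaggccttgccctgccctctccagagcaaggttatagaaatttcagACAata

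Gas5, Snhg1, Snhg5 and Snhg6 thus carry box C/D snoRNAs in this selection, and Snhg3, Snhg8, Snhg12 and Snhg15 carry box H/ACA snoRNAs. Snhg12 also carries the box C/D snoRNA Snord99 besides Snora16a, Snora44 and Snora61, and Snhg3 carries Snora73a and Snora73b, the U17 snoRNAs that act in cleavage of the ribosomal RNA precursor. For 7 hosts the annotation links a transcript to the RefSeq record of the deposited row, and in 6 of these the snoRNAs lay outside the exons. The exception is Snhg8, whose matched transcript has 1 exon that contains Snora24, so tags from Snora24 count towards Snhg8.

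The host starts are shown because the pyrimidine run at the start is the feature that places a host among the TOP genes. The sequences cover 10 bases before and 25 bases from the transcript start of each RefSeq promoter record (GRCm38.p6). Capitals mark a C followed by at least 4 pyrimidines (C or T) that begins within the 5 bases before to 15 bases after the start. There were 8 records for 7 of the hosts, all but Snhg6, and Gas5 had 2, neither of which starts where its deposited row does.
Gas5, upstream start, chr1:161034591-161034625, plus strand: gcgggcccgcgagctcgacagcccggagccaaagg
Gas5, downstream start, chr1:161035156-161035190, plus strand: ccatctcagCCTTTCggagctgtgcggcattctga
Snhg1, chr19:8723477-8723511, plus strand: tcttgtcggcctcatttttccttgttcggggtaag
Snhg3, chr4:132353662-132353696, minus strand: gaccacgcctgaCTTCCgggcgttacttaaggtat
Snhg5, chr9:88522873-88522907, minus strand: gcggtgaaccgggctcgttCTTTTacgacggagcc
Snhg8, chr3:123508312-123508346, minus strand: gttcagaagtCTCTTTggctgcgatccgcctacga
Snhg12, chr4:132308668-132308702, plus strand: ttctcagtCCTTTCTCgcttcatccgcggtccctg
Snhg15, chr11:6528736-6528770, minus strand: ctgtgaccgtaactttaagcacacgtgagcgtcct

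Such a run was present in 5 of the 8 records, namely the downstream Gas5 start, Snhg3, Snhg5, Snhg8 and Snhg12. It was present in 24.3% of 32851 mouse promoter records searched in the same way, and in 8 of 19 records of a list of protein-coding snoRNA hosts and TOP genes. The E-box CACGTG, which reads the same on both strands and was searched in 300 bases around the start, was found in 1 record, that of Snhg15, and in 7.15% of all records. These matches describe the letters only. A run anywhere in the window counted, as in Snhg5, where it begins downstream of the start. A match therefore does not show that the transcript begins with the run or that the host is a TOP gene.

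Each library held an estimated 25475000 to 28595000 tags (sequenced reads as the counting program counts them), of which 83.5% to 86.4% lay in gene exons. These totals, and the shares built on them, were inferred from the steps of the RPKM values and are rounded. Tmbim6 was at 330 and 333.7 RPKM (reads per kilobase of exon, scaled to the tags of the library) in NCsh libraries, 308.9 and 320.9 in NCsh libraries with RANKL, 11.15 and 11.71 in TMBIM6sh libraries, and 10.02 and 10.45 in TMBIM6sh libraries with RANKL. All 8 macrophage markers reached 1 RPKM, with sums of 7498 to 10780 RPKM per library. No marker of T cells, dendritic cells or erythroid cells reached 1 RPKM, and Ly6g and the 3 erythroid globins were listed at 0 in all libraries.

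Every host was expressed in every library. All 8 had at least 1 RPKM in all 8 libraries, so all 8 passed the filter of at least 1 RPKM in at least 2 libraries, which left 11040 genes. In order of the mean RPKM over 8 libraries, Gas5 (29.2) stood above Snhg8 (18.3), Snhg1 (10.6), Snhg15 (7.17), Snhg6 (6.82), Snhg12 (6.48), Snhg5 (4.46) and Snhg3 (3.79). Among noncoding rows Gas5 ranked 20 and Snhg3 ranked 174. Gas5 exceeded Snhg8, Snhg8 exceeded Snhg1, Snhg1 exceeded Snhg15 and Snhg12 exceeded Snhg5 in 8 of 8 libraries. Snhg15 exceeded Snhg6 in 5 of 8 libraries, Snhg6 exceeded Snhg12 in 6 of 8 and Snhg5 exceeded Snhg3 in 6 of 8, so the order of these neighbours was not the same in every library.

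The counts behind these levels were modest. Gas5 had 470 to 721 tags per library and Snhg8 had 333 to 443, while Snhg3 had 21 to 73. Snhg1 had 89 to 182 tags, Snhg5 71 to 176, Snhg15 72 to 160, Snhg12 67 to 151 and Snhg6 56 to 95. The bars in the plot of RPKM by library are exact Poisson intervals from these tags, which cover counting error only.

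**Figure D1:**
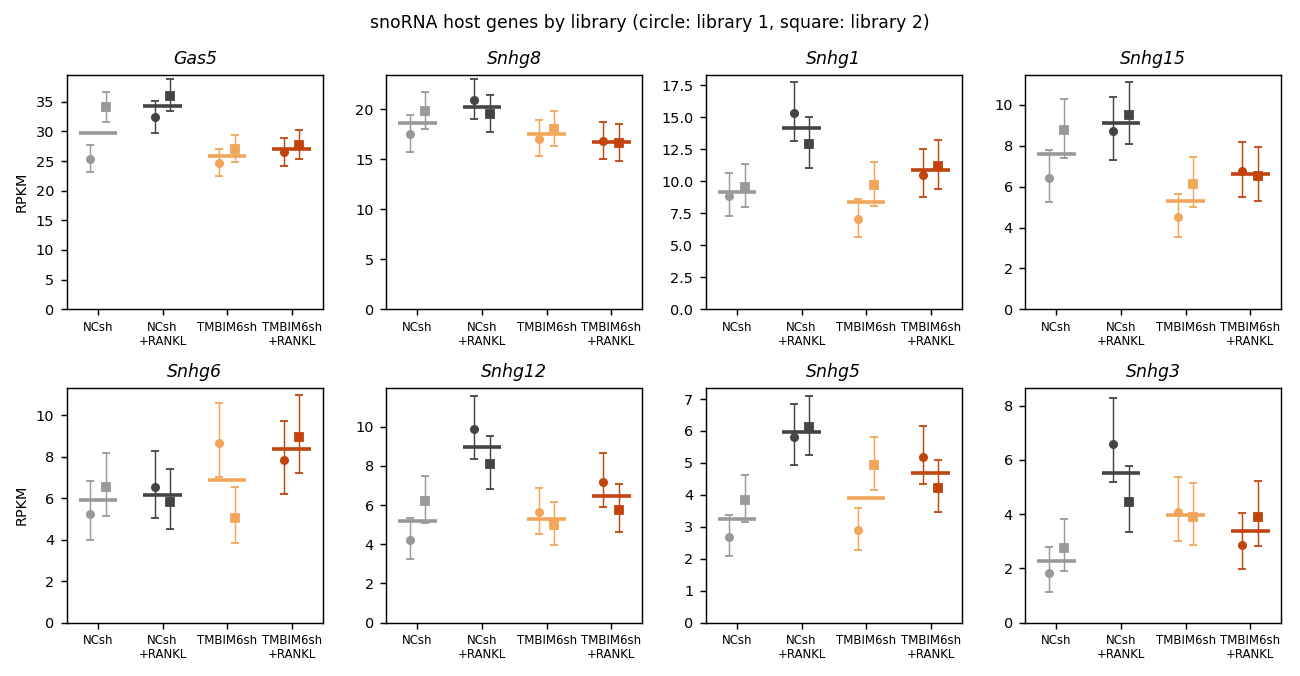
RPKM of each snoRNA host gene (vertical axis, from 0, with its own scale per gene) in the 4 groups (horizontal axis). Circles are library 1 and squares library 2 of a group, vertical bars are 95% Poisson intervals of the tag count, and horizontal lines are group means; both NCsh libraries with RANKL lie above both NCsh libraries for Snhg1, Snhg3, Snhg5 and Snhg12.

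The first comparison asked how RANKL changed the hosts in NCsh macrophages. RANKL raised 4 of the 8 hosts, Snhg3, Snhg5, Snhg12 and Snhg1, and none was called lower. Gas5, Snhg15, Snhg8 and Snhg6 did not pass the test. Across all 11040 genes 15.0% were called in this comparison, and 11.0% were called higher. The median log2 difference of the 8 hosts was 0.41, against 0.06 for all genes, and all 8 differences were above 0, as were 63.2% of all differences. For the 946 tested genes as short as these hosts (403 to 1005 bases of exon), the median was -0.03 and 7.19% were called. In these bulk samples, a change in the share of cells that express a gene and a change of its RNA per cell cannot be told apart.

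Among hosts of box C/D snoRNAs, Snhg1, the host of Snord22, which acts in maturation of the small-subunit ribosomal RNA, had 8.83 and 9.55 RPKM in NCsh libraries and 15.3 and 12.9 RPKM with RANKL. Both RANKL libraries were above both NCsh libraries. The log2 difference on the log2(RPKM + 1) scale was 0.57 (SE 0.130, limma adjusted p = 0.0186). Snhg5, the host of Snord50a and Snord50b, had 2.67 and 3.84 RPKM without RANKL and 5.82 and 6.12 RPKM with it. Its groups did not overlap either, and the difference was 0.73 (SE 0.194, limma adjusted p = 0.034).

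Gas5, first found as an RNA that accumulates in growth-arrested mouse cells, had 25.4 and 34.0 RPKM in NCsh libraries and 32.4 and 36.1 RPKM with RANKL. The lower RANKL library lay below the higher NCsh library, and the log2 difference of 0.21 (95% interval -0.06 to 0.48, limma adjusted p = 0.27) did not pass. Snhg6, the host of Snord87, had 5.25 and 6.52 RPKM without RANKL and 6.53 and 5.81 RPKM with it, and its groups overlapped. Its difference was 0.06 (95% interval -0.36 to 0.48, limma adjusted p = 0.86).

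Among hosts of box H/ACA snoRNAs, Snhg3, the U17 host, had 1.83 and 2.75 RPKM in NCsh libraries and 6.60 and 4.43 RPKM with RANKL. Its groups did not overlap, and its log2 difference of 0.98 (SE 0.185, limma adjusted p = 0.00711) was the largest of the 8. Snhg12, the host of Snora61, had 4.21 and 6.18 RPKM without RANKL and 9.86 and 8.09 RPKM with it. The groups again did not overlap, and the difference was 0.70 (SE 0.159, limma adjusted p = 0.0176).

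Snhg8, whose exon holds Snora24, had 17.5 and 19.8 RPKM in NCsh libraries and 21.0 and 19.6 RPKM with RANKL. Its groups overlapped, and its difference was 0.12 (95% interval -0.05 to 0.28, limma adjusted p = 0.343). This interval lies below the 0.57 of Snhg1 but meets the Snhg1 interval of 0.27 to 0.86. Snhg15, the host of Snora9, had 6.42 and 8.76 RPKM without RANKL and 8.75 and 9.52 RPKM with it. Its groups overlapped by a narrow margin, and the difference was 0.25 (95% interval -0.08 to 0.58, limma adjusted p = 0.289).

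The 4 calls for RANKL in NCsh libraries rested on both control and RANKL libraries. Without NCsh library 1 only Snhg3 was called, and Snhg12 had 0.47 (adjusted p = 0.0724), Snhg1 0.51 (adjusted p = 0.0691) and Snhg5 0.53 (adjusted p = 0.144). Without NCsh library 1 of the RANKL group no host was called, and Snhg3 had 0.74 (limma adjusted p = 0.0629). Snhg5 was also not called without NCsh library 2 of the RANKL group (adjusted p = 0.135), nor without either TMBIM6sh library of the RANKL group (adjusted p = 0.0517 and 0.0513), which enter through the shared spread. Without NCsh library 2, Gas5 was called as well, at 0.41 (limma adjusted p = 0.0172). With no filter on low values 0 hosts were called, with adjusted p of 0.0596 to 0.147 for those 4. The directions of all 4 held in each of these settings.

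**Figure D2:**
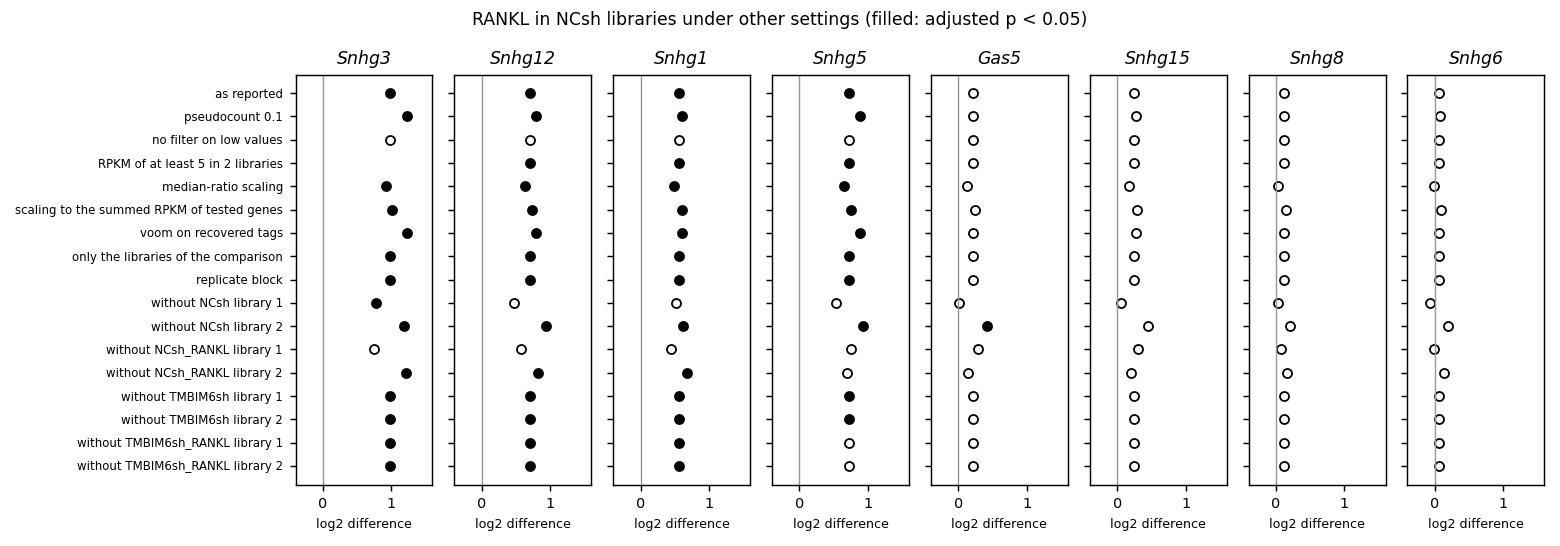
Log2 difference between NCsh libraries with and without RANKL (horizontal axis) for each host gene under each setting (vertical axis), where each point is 1 fit and filled points have an adjusted p under 0.05. Snhg3, Snhg12, Snhg1 and Snhg5 stay above 0 in every row, and none of the 8 is filled without NCsh_RANKL library 1 or with no filter on low values; Snhg3 has no point under the filter of 5 RPKM, which it does not pass.

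A difference between the duplicates went along with this comparison. NCsh library 2 was above NCsh library 1 in 8 of 8 hosts, with a median log2 difference of 0.40. In the same library pair the 946 short genes had a median of 0.24 and all genes 0.01. The other groups did not show a common direction, with 3, 5 and 4 of 8 hosts higher in library 2 of the NCsh RANKL, TMBIM6sh and TMBIM6sh RANKL groups. The part of this difference in the RANKL results was not tested beyond the fits without each library.

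In TMBIM6sh macrophages the same RANKL treatment gave 0 called hosts of 8, where 15.4% of all genes were called. At an unadjusted p under 0.05 there was 1 of 8, Snhg1, a smaller share than the 28.6% of all genes, and the voom alternative on tags also called 0. The median difference of the hosts was 0.24, against 0.02 for all genes. Groups did not overlap upward for 3 hosts, Snhg1, Snhg12 and Snhg15 (32.2% of all genes), and downward for 1, Snhg8 (26.2% of all genes). For comparison, in NCsh libraries 4 hosts did so upward (39.0% of all genes) and 0 downward (17.1% of all genes).

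Snhg1 had 7.01 and 9.71 RPKM in TMBIM6sh libraries and 10.5 and 11.2 RPKM with RANKL, a log2 difference of 0.35 (95% interval 0.06 to 0.65, limma adjusted p = 0.102). Snhg12 had 5.62 and 4.96 RPKM without RANKL and 7.18 and 5.73 RPKM with it, a difference of 0.24 (95% interval -0.12 to 0.60, limma adjusted p = 0.374). Snhg5 had 2.89 and 4.92 RPKM without RANKL and 5.18 and 4.21 RPKM with it, a difference of 0.24 (95% interval -0.19 to 0.68, limma adjusted p = 0.472). All 3 differences were above 0, and smaller than the 0.57, 0.70 and 0.73 of NCsh libraries.

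Snhg3 stood apart from them in sign. It had 4.06 and 3.88 RPKM in TMBIM6sh libraries and 2.87 and 3.88 RPKM with RANKL, a log2 difference of -0.19 (95% interval -0.61 to 0.22, limma adjusted p = 0.557). Snhg15 went from 4.50 and 6.14 RPKM to 6.75 and 6.53 RPKM (0.29, limma adjusted p = 0.239), with both RANKL libraries above. Gas5 had 24.7 and 27.1 RPKM without RANKL and 26.5 and 27.7 RPKM with it (0.06, limma adjusted p = 0.79), and its groups overlapped.

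Snhg8 and Snhg6 complete the set. Snhg8 had 17.1 and 18.0 RPKM in TMBIM6sh libraries and 16.8 and 16.6 RPKM with RANKL (-0.06, limma adjusted p = 0.645). Snhg6 had 8.66 and 5.05 RPKM without RANKL and 7.81 and 8.94 RPKM with it (0.29, limma adjusted p = 0.359), and its 2 TMBIM6sh libraries differed from each other more than the groups did. Snhg6 was called without TMBIM6sh library 1, at 0.63 (limma adjusted p = 0.0291), and Snhg1 was called without TMBIM6sh library 2, at 0.56 (limma adjusted p = 0.0223).

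The RANKL responses in the 2 kinds of libraries were compared by the interaction of hairpin and RANKL. It called 0 hosts, and 1 gene of 11040 (0.00906%) was called at all. At an unadjusted p under 0.05 there was 1 host of 8, Snhg3, where 7.76% of all genes were under it, and voom called 0. The interaction of Snhg3 was -1.18 (95% interval -1.76 to -0.59, limma adjusted p = 0.515), and it ranked 28 among all genes by p. The next were Snhg5 at -0.48 (95% interval -1.10 to 0.13) and Snhg12 at -0.46 (95% interval -0.96 to 0.05). Snhg1 (-0.21), Snhg8 (-0.18) and Gas5 (-0.15) were below 0, and Snhg15 (0.04) and Snhg6 (0.23) above it. A difference in RANKL response between the hairpins is thus not shown for any host.

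**Figure D3:**
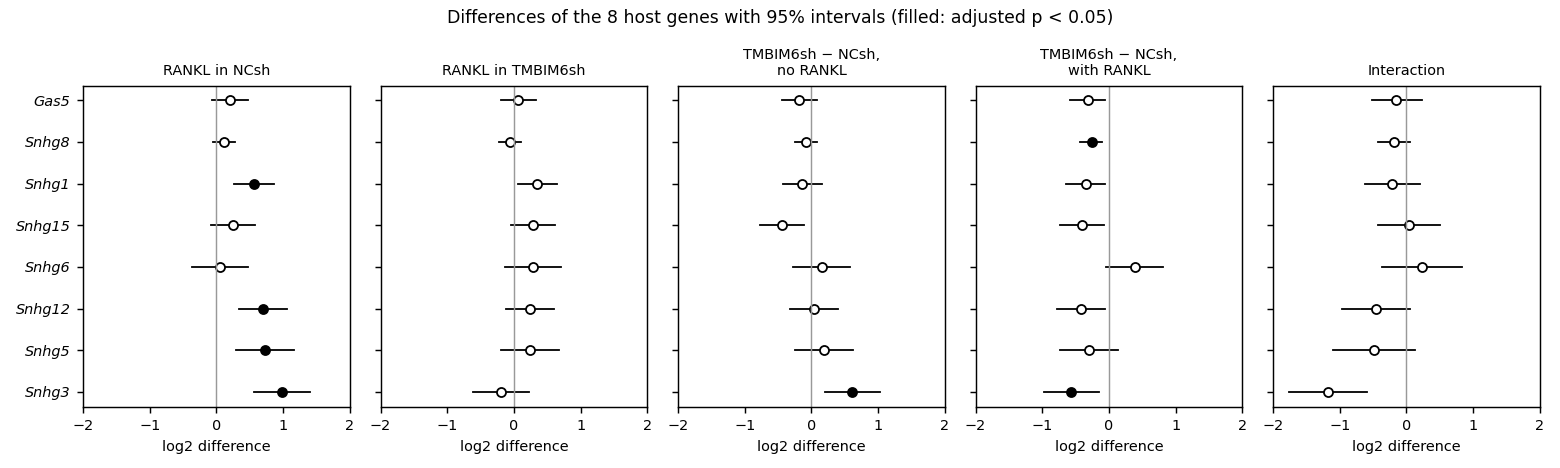
Log2 difference (horizontal axis) with its 95% limma interval for each host gene (vertical axis) in the 5 comparisons, where filled points have an adjusted p under 0.05. Filled points are Snhg1, Snhg12, Snhg5 and Snhg3 for RANKL in NCsh, Snhg3 for the hairpins without RANKL, and Snhg8 and Snhg3 for the hairpins with RANKL.

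The hairpin comparison without RANKL used the same NCsh libraries as the first comparison, so a low NCsh value enters both. Snhg3 was higher in TMBIM6sh libraries, and it was the 1 host of 8 that was called. Its 4.06 and 3.88 RPKM lay above the 1.83 and 2.75 RPKM of NCsh libraries, a log2 difference of 0.61 (SE 0.185, limma adjusted p = 0.0391). Among all genes 24.2% were called and 10.4% were called higher, so 1 host of 8 is near the background. The median of the hosts was -0.02, the same to 2 decimals as for all genes.

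Snhg15 lay lower in both TMBIM6sh libraries, at 4.50 and 6.14 RPKM against 6.42 and 8.76 RPKM, with a difference of -0.44 (95% interval -0.77 to -0.11, limma adjusted p = 0.0538) that missed the threshold. Non-overlapping groups were found upward for 1 host (27.7% of all genes) and downward for 1 host (33.9% of all genes). The other 6 hosts lay between -0.18 for Gas5 and 0.19 for Snhg5, with adjusted p of at least 0.315. Snhg3 was not called without NCsh library 1 (0.41, limma adjusted p = 0.187), without TMBIM6sh library 1 (adjusted p = 0.154), without TMBIM6sh library 2 (adjusted p = 0.121), by voom (adjusted p = 0.107) or with no filter (adjusted p = 0.154). Without NCsh library 1, Snhg15 (-0.64, limma adjusted p = 0.0147) and Gas5 (-0.38, limma adjusted p = 0.0146) were called instead. Without TMBIM6sh library 2, Snhg15 was called at -0.63 (limma adjusted p = 0.0293).

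With RANKL, 7 of the 8 hosts lay lower in both TMBIM6sh libraries than in both NCsh libraries, and 42.7% of all genes did so. Snhg3 and Snhg8 passed the test, 2 hosts of 8, where 28.6% of all genes were called and 19.7% were called lower. The median of the hosts was -0.34, against -0.07 for all genes and -0.00 for the 946 short genes. At an unadjusted p under 0.05 there were 6 hosts of 8, where 40.7% of all genes were under it. Snhg6 was the exception in direction, and 23.7% of all genes had non-overlapping groups upward.

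Snhg3 had 2.87 and 3.88 RPKM in TMBIM6sh libraries with RANKL against 6.60 and 4.43 RPKM in NCsh libraries with RANKL, a log2 difference of -0.57 (SE 0.185, limma adjusted p = 0.0462). Over the fits without 1 library it ran from -0.81 to -0.32 and was called in 3 of 8. It was -0.32 (limma adjusted p = 0.297) without NCsh library 1 of the RANKL group, and the call was also lost without either TMBIM6sh library (adjusted p = 0.0652 and 0.065), with the libraries of the comparison alone (adjusted p = 0.0525) and with a pseudocount of 0.1 (adjusted p = 0.0549). Snhg8 had 16.8 and 16.6 RPKM against 21.0 and 19.6 RPKM, a smaller difference of -0.26 (SE 0.0749, limma adjusted p = 0.0264) between closely spaced duplicates. As for Snhg3, the Snhg8 call was lost by voom (adjusted p = 0.101), with median-ratio scaling (limma adjusted p = 0.0737) and with no filter (limma adjusted p = 0.0569). Over the fits without 1 library the Snhg8 difference ran from -0.31 to -0.22. The sign of the Snhg3 difference is the opposite of that without RANKL, where the same 2 hairpins were compared in other libraries.

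The other hosts lay lower without passing. Snhg12 had 7.18 and 5.73 RPKM against 9.86 and 8.09 RPKM (-0.42, 95% interval -0.78 to -0.06, limma adjusted p = 0.0756). Snhg15 had 6.75 and 6.53 RPKM against 8.75 and 9.52 RPKM (-0.41, 95% interval -0.73 to -0.08, limma adjusted p = 0.0637). Snhg1 had 10.5 and 11.2 RPKM against 15.3 and 12.9 RPKM (-0.35, 95% interval -0.64 to -0.06, limma adjusted p = 0.0732). In each of these 3 hosts the higher TMBIM6sh library stayed below the lower NCsh library.

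Gas5 had 26.5 and 27.7 RPKM against 32.4 and 36.1 RPKM (-0.32, 95% interval -0.59 to -0.06, limma adjusted p = 0.067). Snhg5 had 5.18 and 4.21 RPKM against 5.82 and 6.12 RPKM (-0.30, 95% interval -0.73 to 0.14, limma adjusted p = 0.285). Snhg6 had 7.81 and 8.94 RPKM against 6.53 and 5.81 RPKM (0.39, 95% interval -0.04 to 0.81, limma adjusted p = 0.155), the reverse order of the other hosts. Over the settings the hosts called in this comparison were not the same, and in some they included Snhg6, which was higher. Their number ran from 0 to 6. It was 0 without NCsh library 1 of the RANKL group and without either TMBIM6sh library of the RANKL group, and 1, Snhg3, without NCsh library 2 of that group. It was 5 without either NCsh library and 4 without either TMBIM6sh library. It was 0 with median-ratio scaling, which splits the called genes of this comparison into 1608 higher and 1621 lower in place of 986 and 2171, and 6 with scaling to the summed RPKM, with 801 higher and 2583 lower.

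Neutrophil and B cell markers were at low levels and lower in TMBIM6sh libraries. The summed RPKM of 4 neutrophil markers, of which 1 reached 1 RPKM and Ly6g was at 0, was 22.4 to 27.9 in NCsh libraries, 22.8 to 27.4 in NCsh libraries with RANKL, 11.4 to 15.5 in TMBIM6sh libraries and 12.1 to 14.8 in TMBIM6sh libraries with RANKL. The sum of 8 macrophage markers was 9384 to 10780 RPKM, 9193 to 9270, 8584 to 8590 and 7498 to 8113 in the same order. The sum of 4 B cell markers, of which 1 reached 1 RPKM, was 1.09 to 2.08, 1.92 to 3.13, 0.435 to 0.62 and 0.895 to 1.27 RPKM. The sum of 3 stromal markers, of which 2 reached 1 RPKM, was 1.995 to 2.585, 2.31 to 2.41, 2.57 to 3.01 and 2.27 to 2.58 RPKM, ranges that overlap between the hairpins with and without RANKL. Their part in the differences between hosts was not tested.

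Rows for the snoRNAs themselves were few and thin. The table has 110 snoRNA rows, 82 of which reach 1 RPKM in some library, and 8 of the rows lie inside 5 of the hosts, with 0 to 16 tags per library. A tag there can come from the snoRNA or from unspliced host RNA, or, for Snora24 inside the Snhg8 exon, from the host RNA itself, and these cannot be told apart. Snord22, inside Snhg1, had 5 and 6 tags in NCsh libraries, 10 and 12 with RANKL, 7 and 5 in TMBIM6sh libraries, and 10 and 16 with RANKL. It was called higher with RANKL under both hairpins, by 0.71 (limma adjusted p = 0.0273) and 0.88 (limma adjusted p = 0.0095) on the log2 scale. These calls rest on 5 to 16 tags per library, where counting error is large. The p-values reflect the spread between duplicates, which can by accident be smaller than that error.

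Inside Snhg12, Snora61 had 0 and 2 tags in NCsh libraries, 4 and 7 with RANKL, 3 and 5 in TMBIM6sh libraries, and 3 and 5 with RANKL. Snora16a, in the same host, had 1 and 1, 3 and 5, 4 and 5, and 5 and 3 tags in that order. Both were lowest in NCsh libraries, but these counts lie near 3 tags, the most that a count of 0 allows, and Snora16a reached 1 RPKM only in groups where it is higher, so no test is given for either. Snora44 and Snord99 of the same host were called in no comparison. Snord87, inside Snhg6, had 13 tags over all 8 libraries together, with 3 and 1 in NCsh libraries, 3 and 1 with RANKL, 0 and 0 in TMBIM6sh libraries, and 3 and 2 with RANKL. No fold or test is given for Snord87, because all its counts are at or under 3 tags.

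Genes beside the hosts were checked because counting ignored strand. Snhg3 is overlapped on the opposite strand by Gm17300 and Snhg6 by Mcmdc2 in GENCODE M21, and reads of a host and its antisense partner cannot be told apart where their exons meet. On its own strand Snhg3 is also overlapped by Rcc1 in GENCODE M21. The deposited row of Rcc1 (chr4:132331919-132345750) ends short of Snhg3, but reads of longer Rcc1 transcripts over Snhg3 exons cannot be told apart from Snhg3. Zbtb37 begins 67 bases from the deposited row of Gas5 on the opposite strand, with 0.642 to 1.37 RPKM. The upstream Gas5 start shown above lies within the span of Zbtb37. Prss12, 950 bases from Snhg8, had at most 1 tag. Trnau1ap, a factor of selenocysteine transfer RNA, lies 739 bases from Snhg12. It showed no call for RANKL in either hairpin (-0.00, limma adjusted p = 0.992, and -0.17, limma adjusted p = 0.226), and was lower in TMBIM6sh libraries with RANKL (-0.42, limma adjusted p = 0.00545).

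The hosts tended to vary together over the 8 libraries. Of 28 pairs of hosts, 23 had a Pearson r above 0, with a median of 0.627. The pairs share hosts and so are not independent, and r was not computed for pairs of other genes. Varying together is thus not shown to be particular to the hosts. Gas5 and Snhg15 were the most alike pair (0.920) and Snhg6 and Snhg8 the least (-0.454), and the 5 pairs below 0 all held Snhg6. The tested genes whose log2 values were most like the mean standardized pattern of the 8 hosts were Exosc9 (r = 0.989), a subunit of the RNA exosome, 2610005L07Rik (0.963), Prdm10 (0.960), Trmt6 (0.959), a subunit of a transfer RNA methyltransferase, and Hnrnpk (0.956), an RNA-binding protein. These r values span the 4 groups and share the libraries and their depth, and describe likeness only. Exosc9 had 15.5 and 18.1 RPKM in NCsh libraries, 21.4 and 20.3 with RANKL, 15.7 and 16.4 in TMBIM6sh libraries, and 18.0 and 17.5 with RANKL.

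Of 14 other snoRNA hosts listed, 13 were in the table and 9 were tested. With RANKL in NCsh libraries 2 of 9 were called higher and 0 lower, with a median of 0.25, where 11.0% of all genes were called higher. Zfas1, a host of box C/D snoRNAs, had 8.40 and 11.7 RPKM and then 14.1 and 16.2 RPKM (0.57, limma adjusted p = 0.0428), with no overlap. Snhg17 had 1.05 and 1.20 RPKM and then 2.39 and 1.87 RPKM (0.55, limma adjusted p = 0.0205). In TMBIM6sh libraries RANKL called 0 of the 9, with a median of 0.04, where 15.4% of all genes were called. Between the hairpins without RANKL 1 of 9 was called, Snhg10, at 0.215 and 0.266 RPKM in NCsh against 1.32 and 0.665 RPKM in TMBIM6sh libraries. In that comparison 24.2% of all genes were called and 10.4% were called higher. Snhg10 was under 1 RPKM in all NCsh libraries and passed the filter only through TMBIM6sh libraries, where it is higher, so the call is not independent of the filter. With RANKL 2 were called lower in TMBIM6sh libraries, Zfas1 (-0.50, limma adjusted p = 0.0418) and Snhg4 (-0.41, limma adjusted p = 0.0455). This count is near the background, as 19.7% of all genes were called lower there.

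Transcripts of several proteins and assembly factors of snoRNA particles were called higher with RANKL under both hairpins. Of 12 box C/D proteins and assembly factors, 5 were called higher with RANKL in NCsh libraries and 4 in TMBIM6sh libraries, and 0 lower, with medians of 0.26 and 0.25. Of all genes 11.0% and 8.53% were called higher in these comparisons. Nop56, a core protein of box C/D particles, had 26.6 and 26.9 RPKM and then 40.3 and 40.3 RPKM in NCsh libraries (0.57, limma adjusted p = 6.04e-04), and 25.1 and 25.6 RPKM and then 35.4 and 39.4 RPKM in TMBIM6sh libraries (0.54, limma adjusted p = 4.82e-04). Ruvbl2, an assembly ATPase (0.47 and 0.53), and Nolc1, a nucleolar phosphoprotein (0.46 and 0.39), were called under both. Nop58 (0.58) and Fbl, fibrillarin (0.30), were called in NCsh libraries, and Snu13 (0.31) in TMBIM6sh libraries. Between the hairpins 1 of the 12 was called without RANKL, Nop58 (0.31, limma adjusted p = 0.0419), and 0 with RANKL.

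Of 6 box H/ACA proteins and assembly factors, 2 were called higher with RANKL under each hairpin and 0 lower, with medians of 0.37 and 0.36, beside the same 11.0% and 8.53% of all genes. Dkc1, which encodes dyskerin, had 6.49 and 6.33 RPKM in NCsh libraries, 11.3 and 12.1 with RANKL, 2.81 and 2.54 in TMBIM6sh libraries, and 4.91 and 4.55 with RANKL. Dkc1 thus rose with RANKL by 0.78 (limma adjusted p = 4.72e-04) and 0.64 (limma adjusted p = 8.05e-04), and was lower in TMBIM6sh libraries by -1.01 (limma adjusted p = 5.06e-05) and -1.15 (limma adjusted p = 2.45e-05) on the log2 scale. Naf1, an assembly factor of the same particles, was also lower in TMBIM6sh libraries (-0.69, limma adjusted p = 0.00165, and -0.51, limma adjusted p = 0.00682). These were the 2 of 6 called lower in both hairpin comparisons, where 13.8% and 19.7% of all genes were called lower. Gar1 (0.55, limma adjusted p = 0.0256) was the second call in NCsh libraries and Nhp2 (0.51, limma adjusted p = 0.0222) in TMBIM6sh libraries.

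Of 14 factors of nonsense-mediated decay, 2 were called higher with RANKL in NCsh libraries, among them Smg5 (0.25, limma adjusted p = 0.0334), and 0 in TMBIM6sh libraries, where 11.0% and 8.53% of all genes were called higher. Without RANKL 2 were higher in TMBIM6sh libraries, among them Smg1 (0.24, limma adjusted p = 0.0451), the kinase of the decay factor Upf1, and 2 lower, Smg5 (-0.21) and Eif4a3 (-0.25), a core protein of the exon junction complex. Of all genes 10.4% were called higher and 13.8% lower in that comparison, so these counts are near the background. With RANKL 5 of 14 were lower in TMBIM6sh libraries, namely Eif4a3 (-0.36, limma adjusted p = 0.00218), Upf3b (-0.38, limma adjusted p = 0.0329), Casc3 (-0.25), Smg9 (-0.25) and Smg5 (-0.24), and 0 higher, where 19.7% of all genes were called lower and 8.93% higher.

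Of 30 protein-coding snoRNA hosts and TOP genes, 3 were called higher with RANKL under each hairpin and 0 lower, with medians of -0.06 in NCsh and 0.07 in TMBIM6sh libraries. This share is near the 11.0% and 8.53% of all genes called higher. Rcc1, whose deposited row lies between Snhg12 and Snhg3 on chromosome 4 and whose GENCODE M21 gene overlaps Snhg3, rose under both hairpins (0.35, limma adjusted p = 0.00967, and 0.41, limma adjusted p = 0.00411), as did Ncl, nucleolin (0.33 and 0.30). Eif4a2 (0.23) was the third call in NCsh libraries and Pabpc1 (0.27) in TMBIM6sh libraries. Between the hairpins, Eif4a1, a translation initiation helicase and snoRNA host, had 311 and 343 RPKM in NCsh libraries and 176 and 179 RPKM in TMBIM6sh libraries without RANKL (-0.88, limma adjusted p = 3.74e-05), and 338 and 343 RPKM against 175 and 187 RPKM with RANKL (-0.91, limma adjusted p = 2.52e-05). It was the 1 gene of 30 called lower in each hairpin comparison, and 1 was called higher in each, Eif4a2 (0.20) and Pabpc1 (0.24). In these comparisons 13.8% and 19.7% of all genes were called lower, and 10.4% and 8.93% higher.

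In the interaction of hairpin and RANKL 0 members of these 5 lists were called. The medians were -0.29 for the other snoRNA hosts, -0.05 for box C/D proteins, -0.14 for box H/ACA proteins, -0.08 for decay factors and 0.09 for the protein-coding hosts and TOP genes, beside -0.20 for the 8 hosts and -0.05 for all genes.

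**Figure D4:**
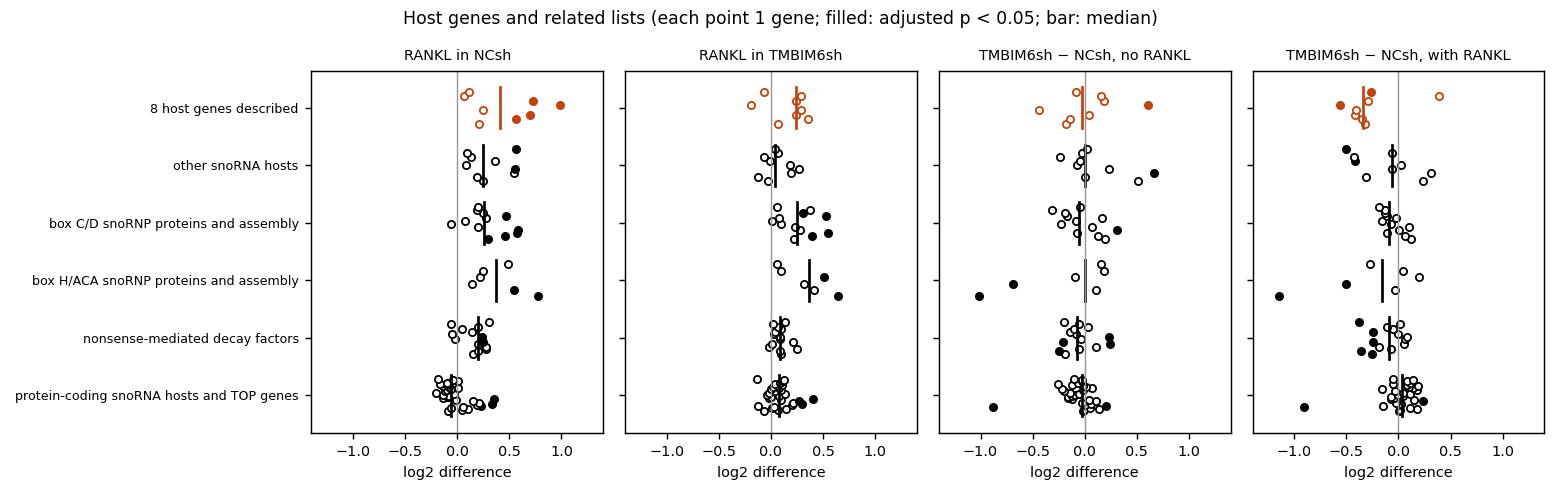
Log2 difference (horizontal axis) of each tested gene of the 8 hosts and of 5 related lists (vertical axis) in 4 comparisons, where filled points have an adjusted p under 0.05 and the vertical bars are list medians. The 8 hosts have medians of 0.41, 0.24, -0.02 and -0.34 from left to right, and the lowest filled points of the hairpin comparisons are Dkc1 among the box H/ACA proteins and Eif4a1 among the protein-coding hosts.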

How the data were processed

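Mouse macrophage RNA was measured in 8 libraries. The deposited RPKM values were made by the authors with HOMER's analyzeRepeats on mm10 gene models, per the file headers: tags over exons were counted on both strands, isoforms were merged into 1 row per gene, and the tags were scaled by exon length and by library size. The column heads say FPKM. The submitters' processing notes also name HISAT2 and DESeq2, with no version. Exon length in bases is as deposited. A gene with several near copies or overlapping partners may share tags with them.

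RPKM values rise in steps of 1 tag, which gave an estimate of the tags per library and, from it, the tags per gene. Of 2617 to 2779 low values per library (up to 20 tags), 100% were whole within 0.1 tags. Values were used as log2(RPKM + 1), which understates changes of low genes. A model with a mean for every group and an intensity trend (4 residual and 5.54 prior degrees of freedom) was fitted with limma 3.58.1 (R 4.3.3) to the 11040 genes with at least 1 RPKM in at least 2 libraries, and p-values were adjusted over these with the Benjamini-Hochberg method at a threshold of 0.05. The fit was tested on simulated data.

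Groups were taken from the sample titles, since the treatment text is the same for all samples. The hosts, the lists and the tests were chosen with earlier results of these data known. Named genes were the 8 hosts, Tmbim6, up to 3 genes per list with the smallest p in a comparison plus any called where 5 or fewer were, rows inside or within 1000 bases of a host, and the 5 genes most like the hosts over libraries; a few of these are not reported here. The alternatives were another pseudocount (0.1), no filter or one of 5 RPKM, 2 scalings, voom on tags, a fit on the libraries of a comparison, a replicate block, and leaving out each library. Sequences are from RefSeq and GENCODE M21 on GRCm38. Figures were drawn with matplotlib 3.10.9.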

Additional observations from a re-analysis of the deposited data

How the results depend on the processing

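Host calls depended on the processing. Directions could change in only some of the settings. Another filter, the replicate block, a fit on the libraries of the comparison, or leaving out a library of other groups leaves the difference itself unchanged. Of 627 values of a host in a comparison under another setting, 37 lost a call, 35 gained one and 17 changed sign, and 0 of the 17 were called. With no filter on low values (18292 genes tested) 0 hosts were called in every comparison and the genes called in the interaction went from 1 to 8; with the filter of 5 RPKM that number was 0. For TMBIM6sh minus NCsh with RANKL, 2 hosts were called as reported, Snhg3 and Snhg8. With a pseudocount of 0.1 it was 1, Snhg8, and with median-ratio scaling it was 0. Scaling to the summed RPKM called 6, all but Snhg5 and Snhg6. Voom called 1, Gas5, and neither Snhg3 nor Snhg8. The libraries of the comparison alone called 6, all but Snhg3 and Snhg5. Of these, Snhg6 was higher in TMBIM6sh libraries (0.39) and the others were lower. For TMBIM6sh minus NCsh without RANKL (1 host), 2 were called with scaling to the summed RPKM and 0 with voom. The genes called for RANKL in NCsh libraries fell from 1653 to 1020 with the libraries of the comparison alone. Median-ratio scaling split the called genes of that comparison into 787 higher and 850 lower, in place of 1214 and 439. The cause of these changes was not tested.

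Leaving out 1 library gave 0 to 5 called hosts for RANKL in NCsh libraries, 0 to 1 for RANKL in TMBIM6sh libraries, 0 to 2 for the hairpins without RANKL, 0 to 5 with RANKL and 0 in the interaction. Genes called ran from 694 to 1520, 826 to 2056, 1396 to 2523, 1870 to 3558 and 0 to 2 in the same order. Signs changed in these fits for differences near 0. For RANKL in NCsh libraries Snhg6 ran from -0.071 to 0.20, and was -0.0082 with median-ratio scaling. For RANKL in TMBIM6sh libraries Snhg5 ran from -0.061 to 0.55 and Snhg6 from -0.045 to 0.63. For the hairpins without RANKL Gas5 ran from -0.38 to 0.027, Snhg1 from -0.35 to 0.072, Snhg5 from -0.12 to 0.49, Snhg6 from -0.18 to 0.49 and Snhg12 from -0.19 to 0.27. In the interaction Gas5 ran from -0.35 to 0.057, Snhg6 from -0.11 to 0.57 and Snhg15 from -0.16 to 0.23.

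Titles number the libraries of each group 1 and 2, and no label says that a number pairs them. The correlation of same-numbered deviations was -0.065 to 0.062 over 6 pairs of groups. Values this near 0 do not settle whether same-numbered libraries share a mouse or culture. A replicate block called 4 hosts for RANKL in NCsh libraries, 0 for RANKL in TMBIM6sh libraries, 2 without RANKL (Snhg15 and Snhg3), 3 with RANKL (Snhg15, Snhg8 and Gas5) and 0 in the interaction, with 1608, 1670, 2654, 3128 and 1 genes called. Depth limits Snhg3 most, at 21 to 73 tags per library.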
